A study of Mus musculus with 21 samples.

Results

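The calcium-handling genes of the sarcoplasmic reticulum are described here in left ventricular RNA of 21 male mice of strain 129S6/SvEv. The 10 genes (Ryr2, Casq2, Trdn, Hrc, Atp2a2, Pln, Sln, Cacna1c, Cacnb2 and Slc8a1) were taken by name, through the Ensembl identifiers of the table of counts, and all 10 of the 55450 genes listed there were found and had enough counts to be tested, among 17309 tested genes. Wild-type hearts came from 5 animals fed control chow (WT-CD) and 5 fed chow with 0.15 mg/g of empagliflozin (WT-EMPA), and R403Q hearts from 7 animals fed the former (R403Q-CD) and 4 fed the latter (R403Q-EMPA). Empagliflozin (EMPA) is an inhibitor of the sodium-glucose cotransporter SGLT2. R403Q is a missense mutation of α-myosin heavy chain, encoded by Myh6, that models human hypertrophic cardiomyopathy. It is carried on 1 allele in every cell and is written Myh6+/R404Q in the labels, and a missense mutation cannot be checked in counts per gene. The methods give an age of 12 weeks and 2 weeks of treatment, whereas the labels give 16 weeks of treatment. CD mice came from 4 cages and EMPA mice from 3 others, so cage and diet cannot be told apart.

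Each heartbeat begins when L-type calcium channels of the surface membrane (Cacna1c, Cacnb2) admit a little calcium, which opens the ryanodine receptor (Ryr2) and releases far more from the sarcoplasmic reticulum. Relaxation follows as the pump SERCA2 (Atp2a2) returns calcium to this store and the sodium-calcium exchanger (Slc8a1) moves the rest out of the cell. The small membrane proteins phospholamban (Pln) and sarcolipin (Sln) restrain the pump, and calsequestrin, triadin and the histidine-rich calcium-binding protein (Casq2, Trdn, Hrc) buffer and gate the store.

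Transcripts of Casq2 and Trdn differed little between groups, whereas pump, entry channel and exchanger stood lower in R403Q hearts when both diets were averaged. In that average Atp2a2 fell by 22.3%, Cacnb2 by 20.9%, Cacna1c by 20.6% and Slc8a1 by 19.8%, with adjusted p-values between 0.0282 and 0.04998 in edgeR's quasi-likelihood test, and with cage as a factor all but Cacna1c passed. In R403Q-CD against WT-CD alone, 0 of the 10 genes passed this test, while Atp2a2 passed as lower with cage as a factor. None of the 10 passed this test for EMPA in either genotype or in their average, although Cacna1c passed with DESeq2 in the latter.

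Totals ran from 23491535 to 43539684 counts per mouse (median 33329649), and 3 counts, taken as the floor, corresponded to between 0.0621 and 0.127 CPM, a limit that covers counting error only. CPM relate the counts of a gene to the size of its library after TMM scaling. Markers of ventricular cardiomyocytes were abundant in every library, with summed levels of 84161 to 110951 CPM in the WT-CD, WT-EMPA and R403Q-EMPA hearts and a median of 99876 CPM in R403Q-CD. One heart, R403Q-CD 2, stood apart with a ventricular sum of 65300 CPM, 10996 CPM of the stress and atrial gene Nppa against 883 to 3826 in the other R403Q-CD hearts. Fibroblast markers were higher with genotype in general: their sum was 1088 to 1763 CPM in WT-CD (median 1197) and 1477 to 3804 in R403Q-CD (median 1600), the highest in R403Q-CD 2, and all 6 (Col1a1, Col1a2, Pdgfra, Dcn, Lum and Tcf21) had positive values in the genotype average, with an unadjusted p under 0.05 in edgeR and 2 (Dcn and Lum) past the threshold. On EMPA the sum of the 5 red blood cell markers was higher, with medians of 1009.5 CPM in WT-CD and 1492 in WT-EMPA, and of 1195 in R403Q-CD and 1821 in R403Q-EMPA, and 4 of them (Hbb-bs, Hbb-bt, Hba-a1 and Alas2) passed in the diet average. The 5 smooth muscle and pericyte markers (Myh11, Acta2, Tagln, Rgs5 and Pdgfrb) all had negative values there, with 2 (Acta2 and Tagln) at an unadjusted p under 0.05 and none past the threshold. In the same average 5 of the 6 tested atrial markers had negative values, 3 of them at an unadjusted p under 0.05 and none past the threshold (median −1.19), and 1 endothelial marker, Kdr, passed as higher. The sum of the 6 conduction system markers was 82.6 to 97.8 CPM in WT-CD and 50.5 to 82.3 in R403Q-CD, and 2 of the 5 tested, the channel genes Hcn4 and Cacna1g, passed as lower both there (−1.15 and −0.94) and in the genotype average (−0.83 and −0.79). Of the skeletal muscle and endothelial lists, Mybpc2 and Emcn passed as higher in the genotype average, and no adipocyte marker passed in either average. Summed over the 5 macrophage markers, levels were 137 to 193 CPM in WT-CD and 190 to 338 in R403Q-CD, with no marker at 0, and all 5 (Cd68, C1qa, C1qb, Csf1r and Adgre1) passed as higher in the genotype average, with a median log2 fold change of 0.63. Of the 8 ventricular markers Myh6, which carries the mutation, was the single one to pass there, as lower (−0.39 on the log2 scale or −23.4%, adjusted p = 0.0419, edgeR). Fewer cells of a type and less RNA per cell cannot be told apart in such tissue RNA, and the part of these shifts in the results was not tested.

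Per kilobase of exon, phospholamban and SERCA2 transcripts far outnumbered the others in wild-type ventricle. In WT-CD hearts the level of Pln was 3437 ± 158 RPKM (SD, n = 5), that of Atp2a2 2344 ± 147, Hrc 542 ± 42.0, Casq2 319 ± 51.6 and Ryr2 93.3 ± 9.77. Lower levels were found for Trdn (65.4 ± 5.03 RPKM), Slc8a1 (36.8 ± 5.09), Cacna1c (21.1 ± 1.89), Cacnb2 (6.47 ± 0.556) and Sln (5.53 ± 10.2). Each neighbouring pair kept this order in 21 of 21 mice, except Hrc above Casq2 in 20, Ryr2 above Trdn in 19 and Cacnb2 above Sln in 17 (4 of the 5 WT-CD mice). Among the WT-CD hearts alone, Cacnb2 and Sln were the neighbours in this order whose ranges met. RPKM divides by all annotated exon bases of a gene, which for Ryr2 (28790 bases) and Cacna1c (21191 bases) may exceed the transcripts present.

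**Figure D1:**
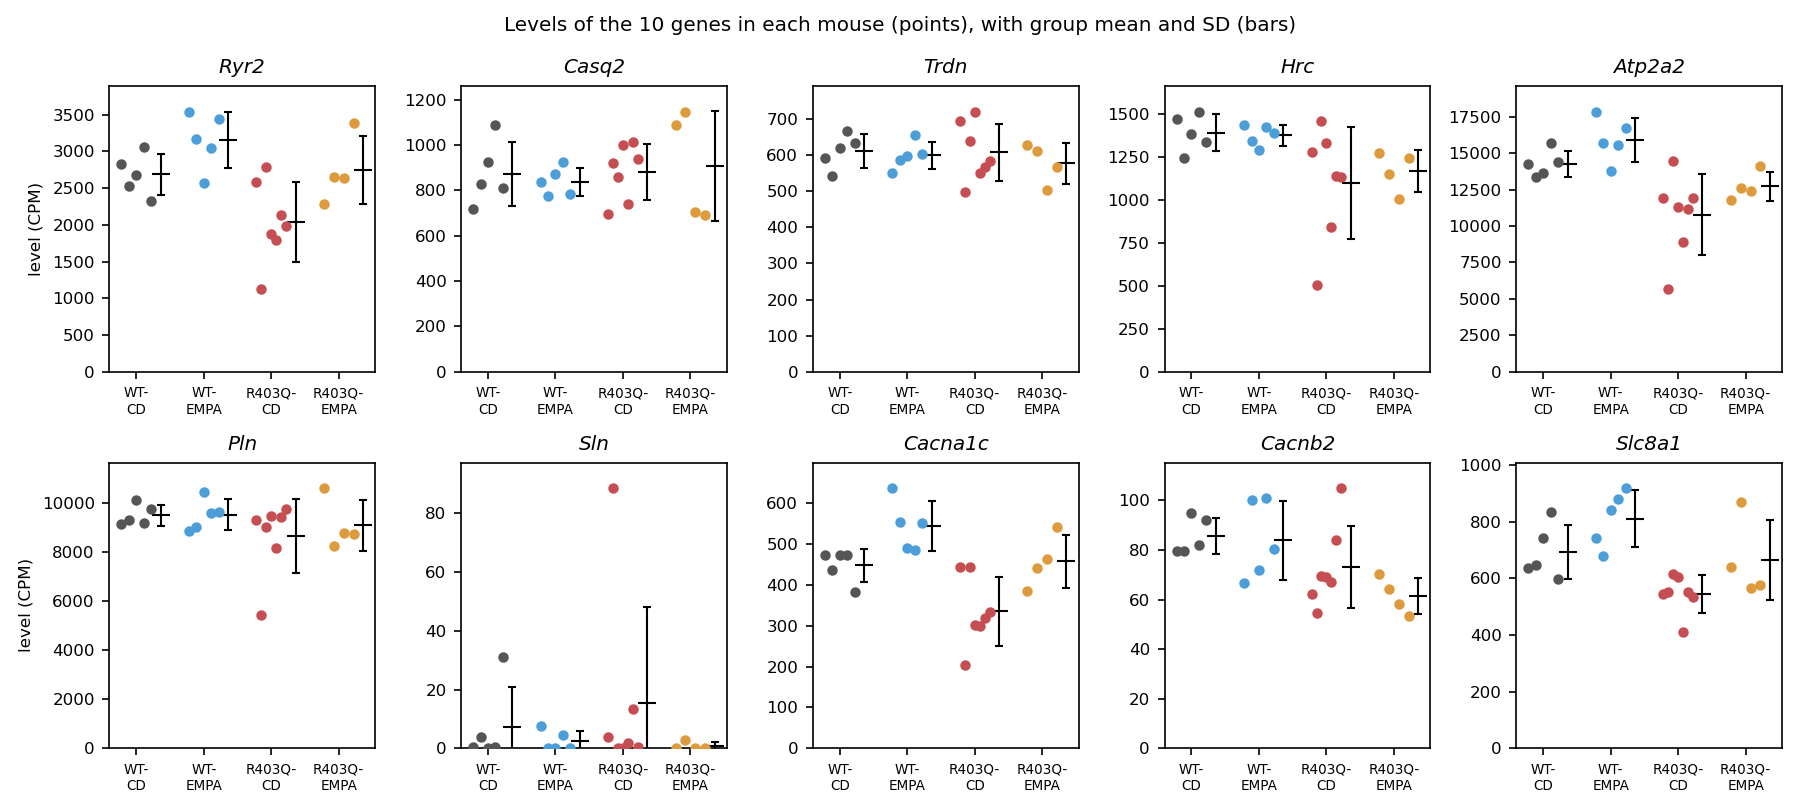
Level of each of the 10 genes (vertical axes, CPM, from 0) in every mouse (points) of the 4 groups, with the group mean and SD as bars. R403Q-CD hearts spread downwards for Ryr2, Hrc, Atp2a2 and Cacna1c, with R403Q-CD 2 the lowest of the 21 in each, while Casq2 and Trdn overlap in all groups and Sln is carried by single mice.

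Ryr2, the release channel itself, lies on the minus strand of chromosome 13 (11553102 to 12106945, GRCm38). Its level was 2833, 2528, 2678, 3063 and 2328 CPM in the 5 WT-CD hearts and 2580.0, 1131, 2784, 1873, 1801, 2138 and 1981 CPM in the 7 R403Q-CD hearts. Of the latter, 5 lay below every WT-CD heart and the other two within their range. On EMPA, Ryr2 stood at 2288, 2659, 2645 and 3389.5 CPM in R403Q hearts and at 3537, 3171, 2573, 3042 and 3436 CPM in wild-type hearts. The groups overlapped in each comparison, and of the 4 R403Q-EMPA hearts 2 lay within the WT-CD range, 1 below and 1 above it.

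The log2 fold change of Ryr2 was −0.40 in R403Q-CD against WT-CD (SE 0.157, 95% interval −0.72 to −0.07, adjusted p = 0.158, edgeR's quasi-likelihood test) and 0.43 in R403Q-EMPA against R403Q-CD (interval 0.08 to 0.77, adjusted p = 0.269). In R403Q-EMPA against WT-CD it was 0.03 (interval −0.34 to 0.41). None of these passed the threshold of 0.05. In the average over diets the difference between genotypes was −0.30 (adjusted p = 0.105, edgeR), and it passed only when R403Q-CD 3, the R403Q-CD heart with the highest level, was left out (adjusted p = 0.044).

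The 250 bases before the RefSeq start of 3 members are shown for contrast: Ryr2 and Slc8a1 were among the genes with lower values in R403Q-CD hearts, and Pln differed little. For Pln this window reaches past the GENCODE start at 53337667, so its last bases lie within the gene as annotated there. Sequences are from a table of RefSeq promoters (GRCm38.p6), in which 7 of the 10 members were matched by symbol (not Atp2a2, Sln and Trdn), and run 5′ to 3′ on the strand of the gene. Capitals mark matches on either strand to a GC box (GGGCGG, which 32.7% of 32851 promoters of this length hold), a TATA box (TATAAA, held by 12.4%), a GATA site (AGATAA, or TTATCT as read on the other strand, held by 10.0%) or an M-CAT site (CATTCC, held by 12.6%). Also searched but left in lower case were an E-box (CANNTG, held by 66.2%) and a nuclear receptor motif (AGGTCA, held by 14.0%).
Ryr2 (chr13:12106946-12107195, minus strand): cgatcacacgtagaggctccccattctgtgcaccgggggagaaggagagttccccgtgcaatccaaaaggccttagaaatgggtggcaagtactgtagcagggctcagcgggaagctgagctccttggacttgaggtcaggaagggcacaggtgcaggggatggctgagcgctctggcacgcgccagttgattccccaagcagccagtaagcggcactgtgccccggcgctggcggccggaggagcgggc
Slc8a1 (chr17:81738388-81738637, minus strand): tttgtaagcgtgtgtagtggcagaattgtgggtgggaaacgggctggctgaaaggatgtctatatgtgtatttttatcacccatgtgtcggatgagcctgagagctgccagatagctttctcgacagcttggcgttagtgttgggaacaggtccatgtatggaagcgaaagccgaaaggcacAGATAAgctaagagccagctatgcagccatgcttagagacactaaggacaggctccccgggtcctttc
Pln (chr10:53337436-53337685, plus strand): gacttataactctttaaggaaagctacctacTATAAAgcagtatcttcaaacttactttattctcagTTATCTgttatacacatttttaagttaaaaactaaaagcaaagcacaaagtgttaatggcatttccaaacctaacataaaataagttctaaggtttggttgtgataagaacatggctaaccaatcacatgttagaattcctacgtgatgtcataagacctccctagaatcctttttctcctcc
The Ryr2 window had 63.2% G and C, no marked motif, 1 AGGTCA and 2 E-boxes. That of Slc8a1 had 50.4%, with 1 GATA site and 1 E-box, and that of Pln 32.8%, with a TATA box, a GATA site and an E-box that do not overlap. A match is a description of letters and not of a bound site.

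Among the proteins of the release complex, Casq2 (calsequestrin, the main calcium buffer of the store; chromosome 3, 102086415 to 102146514) and Trdn (triadin, which ties calsequestrin to the channel; chromosome 10, 33080554 to 33476709) differed little in mean between groups. WT-CD hearts had 872 ± 141 CPM of Casq2 (SD, n = 5), R403Q-CD hearts 880.2 ± 124 (n = 7), R403Q-EMPA hearts 907 ± 243 (n = 4) and WT-EMPA hearts 839 ± 62.1 (n = 5). Trdn gave 611 ± 47.1, 607 ± 79.7, 578 ± 56.3 and 599 ± 37.5 CPM in the same order. All groups overlapped for both genes. The log2 fold change in R403Q-CD against WT-CD was 0.01 for Casq2 (95% interval −0.26 to 0.29) and −0.01 for Trdn (interval −0.19 to 0.17), so a change of Trdn by more than 0.19 in either direction lies outside its interval.

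Hrc, which binds calcium inside the store and associates with triadin and SERCA2 (chromosome 7, 45335290 to 45338974), spread widely in R403Q-CD hearts. Its level was 1473, 1242, 1387, 1512 and 1338 CPM in WT-CD and 1281, 507, 1462, 1330.3, 844, 1140.0 and 1135 CPM in R403Q-CD, and 4 of the 7 R403Q-CD hearts lay below all WT-CD hearts. The difference was −0.34 on the log2 scale (SE 0.164, interval −0.68 to 0.00, adjusted p = 0.242, edgeR's quasi-likelihood test), or −0.22 without R403Q-CD 2. On EMPA the R403Q hearts (1276, 1153, 1003 and 1243 CPM) all lay below the wild-type hearts (1438, 1344, 1291, 1425 and 1388 CPM), a separation in this direction that 3.41% of all tested genes had, and the log2 fold change was −0.24 (adjusted p = 0.578). Averaged over diets it was −0.29 (adjusted p = 0.133, edgeR) and passed only without R403Q-CD 2 (adjusted p = 0.0482).

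Atp2a2, the pump that refills the store (chromosome 5, minus strand, 122453513 to 122502225), had the highest counts of the 10. In WT-CD its level was 14222, 13339, 13663, 15672 and 14371 CPM, and in R403Q-CD 11919, 5696, 14476, 11268, 8892, 11162 and 11946 CPM. All R403Q-CD hearts but R403Q-CD 3 lay below the lowest WT-CD heart. R403Q-EMPA hearts had 11797, 12626, 12365 and 14144 CPM, all within the range of R403Q-CD and 1 of them within that of WT-CD, and WT-EMPA hearts 17817, 15721, 13756, 15563 and 16692 CPM, the highest mean of the 4 groups.

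For Atp2a2 the difference in log2 was −0.40 in R403Q-CD against WT-CD (SE 0.150, interval −0.72 to −0.09, adjusted p = 0.139, edgeR's quasi-likelihood test), and −0.32 in R403Q-EMPA against WT-EMPA (adjusted p = 0.394). Averaged over diets it fell by 0.36 in R403Q hearts (SE 0.115, interval −0.60 to −0.12, adjusted p = 0.0466). Of 21 fits that each left out 1 mouse (adjusted p from 0.00981 to 0.0973), the call was kept in 6, those without WT-EMPA 3, R403Q-CD 1, 2, 3 or 7 or R403Q-EMPA 4, and lost in the others. It was kept under 3 of 6 other settings. In R403Q-CD against WT-CD, with cage as a factor (−0.56, adjusted p = 0.037, edgeR) or without R403Q-CD 3 (−0.49, adjusted p = 0.0482), Atp2a2 passed. On EMPA the values were 0.24 in R403Q (interval −0.09 to 0.58, or 0.13 without R403Q-CD 2) and 0.16 in wild-type hearts (interval −0.18 to 0.50).

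Pln encodes phospholamban, the main brake on SERCA2 in ventricle (chromosome 10, 53337667 to 53345987). Its level was 9112, 9271, 10118, 9160.4 and 9753 CPM in WT-CD and 9288, 5422, 8996, 9468, 8143, 9401 and 9723 CPM in R403Q-CD. Without R403Q-CD 2, the mean of R403Q-CD went from 8634 ± 1504 to 9169.7 ± 556 CPM (SD, n = 6). R403Q-EMPA (8239.9 to 10572 CPM) and WT-EMPA hearts (8832 to 10440.0 CPM) overlapped both groups. The log2 fold change was −0.14 in R403Q-CD against WT-CD (interval −0.38 to 0.11, adjusted p = 0.521, edgeR) and −0.10 averaged over diets (adjusted p = 0.471), or −0.054 and −0.064 without R403Q-CD 2. Pln shares 1644 exon bases with Gm47644 on the opposite strand (median 115 counts per mouse) and 141 with Cep85l (median 1365 counts). Pairs were counted on the same strand, and whether the kit marks strand is not given in the sources used here; without strand, reads of such pairs cannot be told apart, although both partners were far below Pln.

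Because phospholamban acts on the pump, the ratio of Pln to Atp2a2 counts was taken in each mouse, which needs no scaling between libraries. It was 0.641, 0.695, 0.741, 0.585 and 0.679 in WT-CD and 0.779, 0.952, 0.621, 0.840, 0.916, 0.842 and 0.814 in R403Q-CD. Except in R403Q-CD 3, the ratio of every R403Q-CD heart was above all WT-CD hearts. The means of the log2 ratio were −0.587 ± 0.129 (SD, n = 5) and −0.291 ± 0.200 (SD, n = 7), a difference of 0.296. A two-sided exact permutation test gave p = 0.0202 (smallest possible 0.00126), and p = 0.242 after adjustment over the 12 ratio tests made, which did not pass. Both genotypes shared the 4 CD cages, and within them the ratio of each of the 7 R403Q-CD hearts, R403Q-CD 3 included, was above that of every WT-CD cage mate. Compared within cages, an alternative added after this was seen and so with its outcome largely fixed, the difference was 0.336. The exact permutation p was 0.0139, the smallest that the 72 arrangements allow, or 0.0833 after adjustment over 6 such tests, which leaves out the 12 above. In the 2 EMPA cages with both genotypes, all 4 R403Q-EMPA hearts were also above their WT-EMPA cage mates, with a difference of 0.255 and an exact permutation p of 0.222 (0.444 adjusted), where the smallest possible is 0.111. The ratio was 0.896, 0.653, 0.708 and 0.618 in R403Q-EMPA and 0.496, 0.574, 0.759, 0.616 and 0.576 in WT-EMPA. In the other three contrasts of this ratio, and in the 8 of the ratios of Sln and Slc8a1 to Atp2a2, the adjusted p of the exact test was at least 0.476.

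Sln encodes sarcolipin, the pump inhibitor of atrium and skeletal muscle, and lies on chromosome 9 (53850164 to 53854560). Its level was 0.611, 3.82, 0.206, 0.599 and 31.2 CPM in WT-CD and 3.93, 88.4, 0.149, 0.213, 1.89, 13.5 and 0.488 CPM in R403Q-CD. R403Q-EMPA hearts had 0.0729, 2.69, 0.164 and 0.0849 CPM and WT-EMPA hearts 7.49, 0.226, 0, 4.66 and 0.0281 CPM. The count of 0 in WT-EMPA 3 allows a level of up to 0.0996 CPM. Counts ranged from 0 to 4272, 1 or 2 mice carried each group's mean, and all groups overlapped. On the log2 scale the difference was 1.08 in R403Q-CD against WT-CD (SE 1.30, interval −1.62 to 3.78), or −1.12 without R403Q-CD 2, and −4.26 in R403Q-EMPA against R403Q-CD (SE 1.82, adjusted p = 0.312, edgeR's quasi-likelihood test), and neither passed. The latter value was −2.07 without R403Q-CD 2 and −7.07 without R403Q-EMPA 2.

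The level of Sln followed those of 3 of the 6 tested atrial markers across the 21 mice. With Myl7, the atrial regulatory light chain, Pearson's r of log2 CPM was 0.961 and Spearman's rho 0.956. With Myl4, the atrial essential light chain, they were 0.967 and 0.944, and with Dkk3, another gene of the atrial list, 0.759 and 0.735. Sbk2, Sbk3 and Nppa, also on the list, gave an r of 0.223, 0.305 and 0.329 and a rho of 0.286, 0.395 and 0.0143, with an adjusted permutation p of at least 0.14 for each. These relations were looked at after the values were seen, as 6 of 16 computed. The permutation p was 1e-05 for Myl7 and Myl4, the smallest that 100000 permutations can give (adjusted p = 8e-05), and 8e-05 for Dkk3 (adjusted p = 0.000427). For Myl7, Myl4 and Dkk3, r was 0.95, 0.944 and 0.686 without the 2 mice farthest from the median, and 0.958, 0.964 and 0.744 for deviations from the group means, so these 3 relations also held within groups. The mice with the highest Sln, R403Q-CD 2, WT-CD 5 and R403Q-CD 6, had 180.4, 108 and 70.4 CPM of Myl7, where the lowest of the 21 had 0.146, but only R403Q-CD 2 also stood out in Nppa (463 CPM in WT-CD 5 and 890.3 in R403Q-CD 6). In the genotype average 1 atrial marker, Nppa, passed as higher in R403Q hearts (1.58, adjusted p = 0.020, edgeR) and 1, Sbk3, as lower (−0.90, adjusted p = 0.0463). Bmp10, another atrial marker, was at 0 in all WT-CD hearts and reached 0.111 CPM. Over the whole list of 7 atrial markers, summed levels were 259.7 to 743 CPM in WT-CD and 954 to 11645 in R403Q-CD, mostly Nppa. The 5 tested genes whose levels were most like that of Sln over the 21 mice were Myl4, Myl7, Hamp (r = 0.845), Mybphl (0.843) and Emid1 (0.836).

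**Figure D2:**
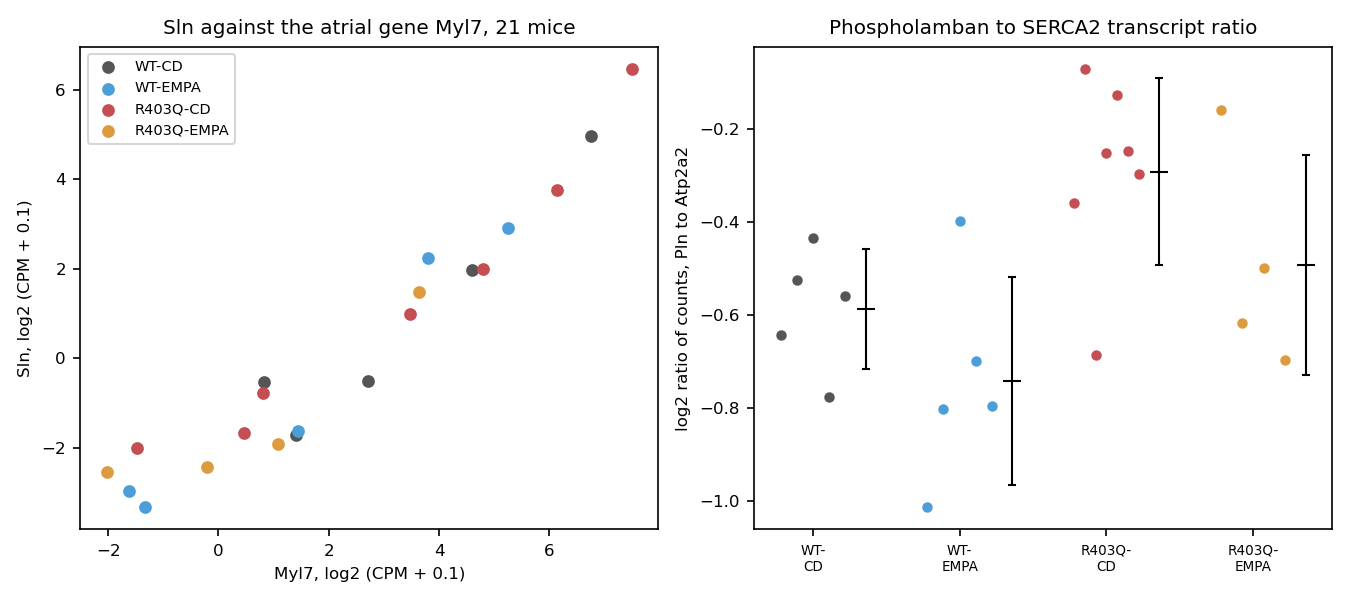
Left, log2(CPM + 0.1) of Sln against that of the atrial light chain gene Myl7, 1 point per mouse coloured by group: mice of all groups fall along 1 line, with R403Q-CD 2 at its upper end. Right, log2 ratio of Pln to Atp2a2 counts per mouse with group mean and SD: R403Q-CD hearts, R403Q-CD 3 excepted, lie above the WT-CD hearts.

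Cacna1c encodes the pore of the L-type channel (chromosome 6, minus strand, 118587240 to 119196418). Its level was 473, 436, 474, 474 and 382 CPM in WT-CD and 443, 203, 444, 302, 300.1, 318 and 334 CPM in R403Q-CD. The same 5 R403Q-CD hearts that lay below all WT-CD hearts for Ryr2 did so for Cacna1c, and R403Q-CD 1 and 3 again lay in the WT-CD range. On EMPA it was 385, 441, 464 and 541 CPM in R403Q hearts and 636, 553, 490.4, 486 and 551 CPM in wild-type hearts. The 5 WT-EMPA hearts were all above the 5 WT-CD hearts, which was so for 1.87% of all tested genes.

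Cacna1c differed by −0.42 in R403Q-CD against WT-CD (SE 0.140, interval −0.71 to −0.13, adjusted p = 0.106, edgeR's quasi-likelihood test), 0.45 in R403Q-EMPA against R403Q-CD (interval 0.14 to 0.76, adjusted p = 0.22) and 0.28 in WT-EMPA against WT-CD (interval −0.04 to 0.60, adjusted p = 0.523), all on the log2 scale. Averaged over diets it fell by 0.33 in R403Q hearts, with an adjusted p of 0.04998, just inside the threshold, and the call was lost with cage as a factor (adjusted p = 0.0924). It was kept under 2 of 6 other settings and in 6 of 21 fits without 1 mouse (0.0192 to 0.115), those without WT-CD 5, WT-EMPA 3, R403Q-CD 1, 2 or 3 or R403Q-EMPA 4. The difference of R403Q-CD from WT-CD passed when R403Q-CD 3 was left out (−0.50, adjusted p = 0.0361, edgeR). Averaged over genotypes it was 0.36 higher on EMPA (SE 0.107, adjusted p = 0.0638), outside the threshold. It passed with DESeq2 (adjusted p = 0.0241), with scaling to library size alone (adjusted p = 0.0497, edgeR) and without R403Q-CD 1, 2 or 3 or R403Q-EMPA 1. R403Q-EMPA and WT-CD differed by 0.03 (interval −0.30 to 0.37).

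Cacnb2 encodes a β subunit that carries the pore to the surface membrane (chromosome 2, 14603088 to 14987908), and its values differed in order from those of Cacna1c. Its level was 79.5, 79.4, 94.95, 81.9 and 91.9 CPM in WT-CD, 62.4, 54.4, 69.7, 69.0, 67.2, 84.2 and 105 in R403Q-CD, and 70.2, 64.1, 58.4 and 53.2 in R403Q-EMPA. WT-EMPA hearts had 66.5, 100.1, 71.8, 100.9 and 80.3 CPM. The R403Q-EMPA hearts had the lowest mean and all lay below the WT-CD hearts, a separation in this direction that 3.5% of all tested genes had. The log2 fold change was −0.48 in R403Q-EMPA against WT-CD (interval −0.80 to −0.16, adjusted p = 0.157, edgeR's quasi-likelihood test), and in a fit of these groups alone the adjusted p was 0.0108. It was −0.23 in R403Q-CD against WT-CD (adjusted p = 0.328) and −0.45 in R403Q-EMPA against WT-EMPA (adjusted p = 0.194). Averaged over diets Cacnb2 fell by 0.34 in R403Q hearts (SE 0.101, adjusted p = 0.037), a call kept under 5 of 6 other settings and in 9 of 21 fits without 1 mouse (0.00989 to 0.0671), those without WT-CD 2, WT-EMPA 1 or 3, R403Q-CD 1, 2, 3, 6 or 7 or R403Q-EMPA 1.

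Slc8a1, the sodium-calcium exchanger NCX1 (chromosome 17, minus strand, 81373105 to 81738377), was the member whose genotype difference lasted under most settings. Its level was 636, 648, 744, 835 and 599 CPM in WT-CD and 544, 553, 616, 603, 409, 553 and 534 CPM in R403Q-CD, of which 5 lay below all WT-CD hearts. It was 641, 869.8, 565 and 578 CPM in R403Q-EMPA and 742, 678, 840.4, 878 and 917 CPM in WT-EMPA. R403Q-EMPA 2 stood alone among the R403Q hearts within the upper wild-type range.

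Averaged over diets Slc8a1 fell by 0.32 on the log2 scale in R403Q hearts (SE 0.0894, interval −0.50 to −0.13, adjusted p = 0.0282, edgeR's quasi-likelihood test). The call was kept under all 6 other settings and in 17 of 21 fits without 1 mouse, and was lost without WT-CD 4, WT-EMPA 5, R403Q-EMPA 1 or R403Q-EMPA 3 (largest adjusted p 0.0634). For R403Q-CD set against WT-CD the value was −0.35 (SE 0.117, interval −0.59 to −0.10, adjusted p = 0.107), and in R403Q-EMPA against R403Q-CD 0.29 (interval 0.03 to 0.54, adjusted p = 0.321, or 0.13 without R403Q-EMPA 2). Averaged over genotypes Slc8a1 was 0.26 higher on EMPA (adjusted p = 0.112, edgeR), which did not pass.

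**Figure D3:**
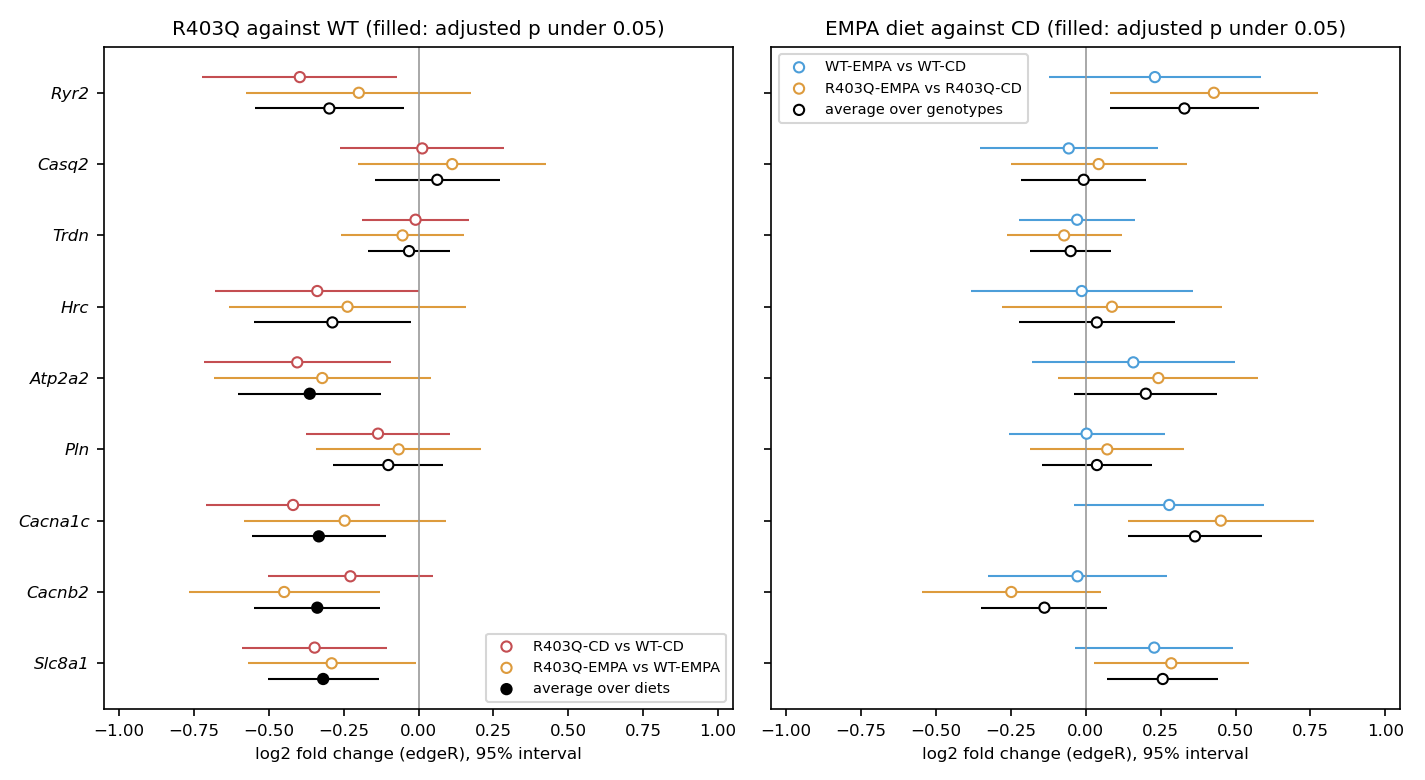
Log2 fold changes (horizontal axes, edgeR, with 95% intervals) of 9 of the 10 genes for R403Q against WT (left) and EMPA against CD (right), each within 1 diet or genotype and averaged; Sln, whose intervals exceed the axis, is left out. Filled points have an adjusted p under 0.05: Atp2a2, Cacna1c, Cacnb2 and Slc8a1 in the genotype average, and none for diet.

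Counted over the 10 genes, R403Q-CD against WT-CD gave 0 past an adjusted p of 0.05 in edgeR and 0 in DESeq2, where edgeR called 1.44% of all tested genes. With cage as a factor 1 (Atp2a2) passed as lower, and without R403Q-CD 3 there were 2 (Atp2a2 and Cacna1c). Both settings also called more of all genes than the 250 of the main fit, with 1045 without R403Q-CD 3. At an unadjusted p under 0.05 edgeR had 4 of the 10 lower (Ryr2, Atp2a2, Cacna1c and Slc8a1) against 9.15% of all genes. The median log2 fold change was −0.28 for the 10 and 0.01 for all genes, 8 of the 10 being negative. In the genotype average, 4 of the 10 passed, all lower, where 4.58% of all genes were called lower, and 6 were lower at an unadjusted p under 0.05 (13.0% of all genes). The count was 4 with DESeq2, 3 with limma or with cage as a factor, and 2 with library size alone, without the filter or with the length slope of each library. It was 0 to 5 when single mice were left out, with 5 without R403Q-CD 2 (Hrc added) or R403Q-CD 3 (Ryr2 added). No member had all R403Q hearts on 1 side of all wild-type hearts, where 0.266% of all genes did.

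EMPA against the control diet within R403Q gave 0 of the 10 past the threshold in edgeR, where 0.0116% of all genes passed, and DESeq2 called none of the 10. At an unadjusted p under 0.05, Ryr2, Cacna1c and Slc8a1 were higher (7.06% of all genes) and Sln lower (6.36%). Within wild-type mice 0 of the 10 passed (0.0289% of all genes) and 0 had an unadjusted p under 0.05 (11.0% of all genes), with 0 in DESeq2 too. Averaged over genotypes, 0 passed in edgeR (2.91% of all genes), with 3 higher (10.7% of all genes) and 1 lower (9.41%) at an unadjusted p under 0.05. In DESeq2, which also called more of all genes, 1 passed (Cacna1c). These contrasts share the R403Q-CD and WT-CD hearts with the genotype contrasts above, so a high or low mouse moves both. The difference of the EMPA effect between genotypes was tested by the interaction. It was past the threshold for 0 of the 10 and 0.0% of all genes in edgeR and for 0 in DESeq2, and had an unadjusted p under 0.05 for 0 of the 10 (3.28% of all genes). Its value was 0.17 for Cacna1c (interval −0.27 to 0.62, or 0.078 without R403Q-CD 2) and 0.20 for Ryr2 (interval −0.30 to 0.69, or 0.079 without R403Q-EMPA 4), so differences of such size were not detectable. Against WT-EMPA hearts, R403Q-EMPA hearts had 0 of the 10 past the threshold in edgeR (0.0578% of all genes) and 0 in DESeq2, with Cacnb2 and Slc8a1 lower at an unadjusted p under 0.05 (6.56% of all genes were lower). Against WT-CD hearts they also had 0 in edgeR (0.971% of all genes) and in DESeq2, with Cacnb2 alone lower at an unadjusted p under 0.05 (5.66% of all genes were lower).

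Several members varied together across mice. Ryr2 and Cacna1c had a Pearson's r of log2 CPM of 0.976 over the 21 mice and 0.963 without R403Q-CD 2. For Ryr2 with Atp2a2 the values were 0.94 and 0.883, and for Hrc with Atp2a2 0.919 and 0.793. The relations of Pln rested on that heart: r with Atp2a2 went from 0.709 to 0.147 without it, with Hrc from 0.833 to 0.417, and with Ryr2 from 0.566 to −0.102. These are descriptions without a test, over mice of 4 groups that share the scaling of each library. The genes with levels most like Atp2a2 were Ogdh (r = 0.983), Aldh4a1 (0.98), Gm30970 (0.978), Tmem201 (0.975) and Rap1gap2 (0.972). Those most like Ryr2 were Cacna1c, Tln2 (0.972), Rreb1 (0.966), Neo1 (0.964) and Kdm6b (0.962).

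R403Q-CD 2 had the lowest Ryr2, Atp2a2, Hrc, Pln, Cacna1c and Trdn of all 21 hearts and the highest Sln. Without it, the coefficient of variation in R403Q-CD went from 26.6% to 18.3% for Ryr2, from 29.6% to 17.7% for Hrc, from 25.8% to 15.5% for Atp2a2 and from 25.4% to 19.1% for Cacna1c. In WT-CD the same genes had 10.5%, 7.76%, 6.29% and 8.96%, all below those of R403Q-CD with or without this mouse, a difference that was not tested. Libraries further differed in how expression changed with exon length, from −0.070 (R403Q-CD 4) to 0.065 (WT-EMPA 1) log2 CPM per doubling of length. Spearman's rho of this slope was 0.597 with Ryr2 and 0.601 with Atp2a2 over the 21 mice (permutation p = 0.00489 and 0.0044, adjusted p = 0.0156 for both), while Pearson's r was 0.454 and 0.345 (permutation p = 0.0423 and 0.129, adjusted p = 0.125 and 0.255), and 0.288 and 0.21 without the 2 mice farthest from the median. For deviations from the group means r was 0.242 and 0.0166, and the members farthest from 0 were Pln (−0.576) and Trdn (−0.551). With the slope as a covariate, an alternative added after seeing the data, R403Q-CD against WT-CD gave −0.34 for Ryr2, −0.39 for Atp2a2, −0.37 for Cacna1c and −0.37 for Slc8a1. In the genotype average the calls of Atp2a2 (−0.34, adjusted p = 0.116, edgeR) and Cacna1c (−0.26, adjusted p = 0.18) were lost with it, while those of Cacnb2 and Slc8a1 were kept.

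**Figure D4:**
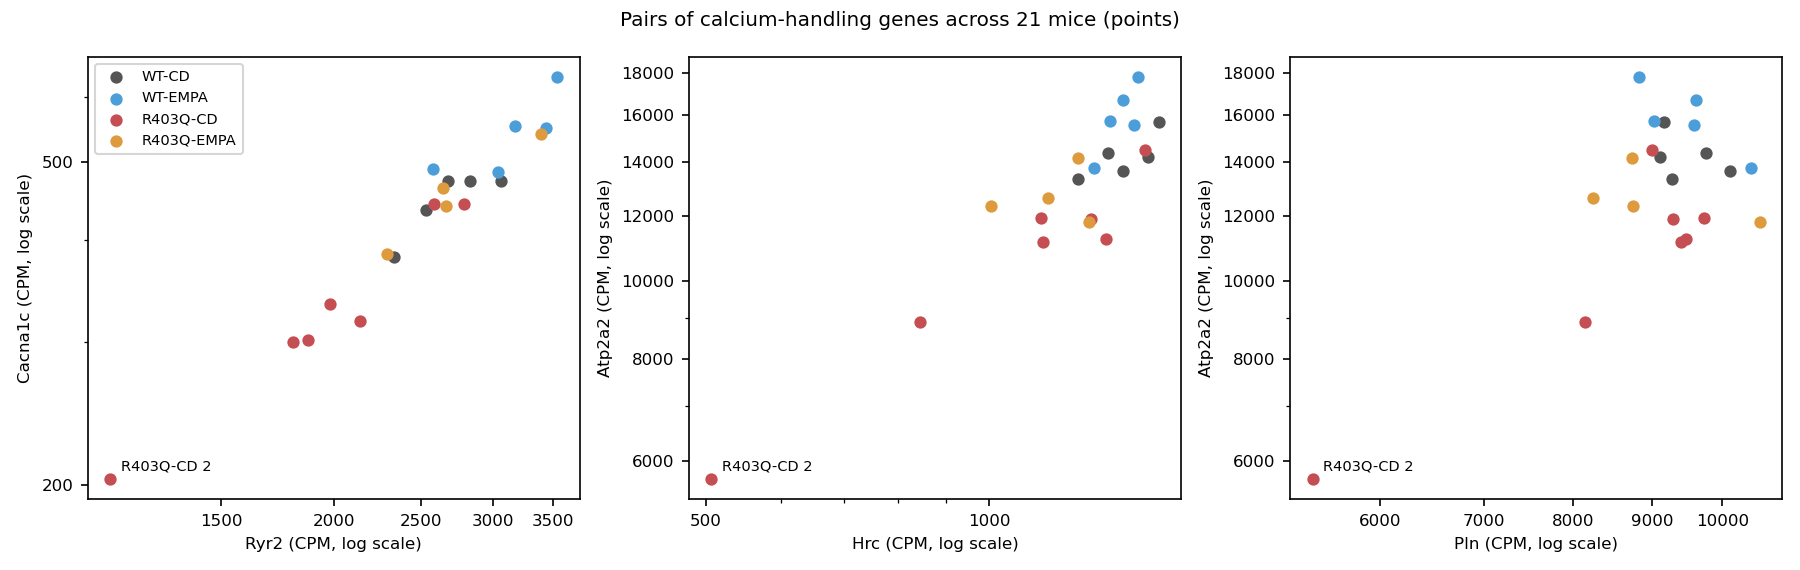
Levels (CPM, log axes) of 3 pairs of genes, 1 point per mouse coloured by group. Ryr2 and Cacna1c lie along 1 line (r = 0.976), whereas the relation of Pln with Atp2a2 (r = 0.709) rests on R403Q-CD 2 and is 0.147 without it.

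Beyond the 10 members, 83 other genes of cardiac calcium handling were listed by role, of which 79 were tested (not Atp2b3, Cacng6, Ryr1 and Slc8a3). In R403Q-CD against WT-CD, 1 of them passed as higher and 2 as lower, where 1.44% of all genes passed. The count was 1 and 8 with cage as a factor, 3 and 7 with DESeq2, 1 and 9 without R403Q-CD 3, and 0 and 0 in a fit of 3 groups or of these groups alone. Counts over all genes moved the same way, from 250 to 1045 without R403Q-CD 3. They also rose with cage or DESeq2 and fell in the smaller fits, with totals given in the section on processing. Jph2, junctophilin 2, which holds the store's membrane beside the surface membrane, fell from 503 ± 48.3 CPM (SD, n = 5) to 385 ± 53.2 CPM (SD, n = 7), with every R403Q-CD heart below every WT-CD heart (1.01% of all genes), which is −0.38 on the log2 scale (adjusted p = 0.0319, edgeR's quasi-likelihood test, SE 0.0876). The call was lost without R403Q-CD 5 and without each of the 5 WT-CD mice. Gem, a small GTPase that restrains L-type channels, rose from 4.48 ± 1.38 to 8.41 ± 2.86 CPM (0.91, adjusted p = 0.0337), and lost its call without WT-CD 1, 3 or 4 or R403Q-CD 5. Camk2b, a calcium/calmodulin-dependent kinase, fell from 12.0 ± 1.31 to 7.93 ± 1.71 CPM (−0.60, adjusted p = 0.0417), a call kept in 3 of 12 fits without 1 mouse. Of 8 other settings, Jph2 and Gem kept their calls in 6 and Camk2b in 5.

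In the genotype average 14 of the 79 genes passed as lower and 3 as higher, where 4.58% and 6.3% of all tested genes did. Jph2 fell by 0.39 (SE 0.0671, adjusted p = 0.00263, edgeR) and was the single gene of the list for which all 11 R403Q hearts lay below all 10 wild-type hearts. Also of the release group, the cation channels Tmem38a (−0.25, adjusted p = 0.0264) and Tmem38b (−0.24, adjusted p = 0.0395) were lower. Higher in this group were S100a1, a calcium sensor that acts on Ryr2 and SERCA2 (0.31, adjusted p = 0.0164), and Jsrp1 (1.07, adjusted p = 0.0343), the latter at under 1 CPM in all groups on average. Of the entry group, Cacna2d1, an auxiliary subunit of the L-type channel, fell by 0.37 (adjusted p = 0.00464) and Cacna1s, the skeletal pore, by 0.61 (adjusted p = 0.0196), while Gem rose by 0.81 (adjusted p = 0.00496). The surface pump Atp2b1 (−0.14, adjusted p = 0.0277) and the mitochondrial uniporter Mcu (−0.17, adjusted p = 0.0318) were lower as well.

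Among 21 kinases, phosphatases and their anchors 7 were lower and 0 higher, with a median log2 fold change of −0.12 against 0.01 for all genes. They were Camk2b (−0.67, adjusted p = 0.00197, edgeR), Prkaca, the catalytic subunit of protein kinase A (−0.28, adjusted p = 0.014), its regulatory subunit Prkar2a (−0.20, adjusted p = 0.0266), the kinase anchors Akap6 (−0.24, adjusted p = 0.0179) and Akap7 (−0.25, adjusted p = 0.00988), the phosphatase subunit Ppp1r3a (−0.24, adjusted p = 0.032) and the calcineurin subunit Ppp3cb (−0.16, adjusted p = 0.00983). The median of the 7 other reuptake genes was −0.02, none of them passing in edgeR, with 1 higher at an unadjusted p under 0.05. Jph2, Cacna2d1, Gem, Camk2b, Prkaca and Akap7 kept their calls under all 6 other settings and all 21 fits without 1 mouse. Fits without 1 mouse kept the calls of S100a1, Akap6 and Ppp3cb in 21 of 21, of Cacna1s in 20 (not without R403Q-EMPA 1), of Tmem38a and Prkar2a in 18, of Atp2b1 in 17, of Mcu and Ppp1r3a in 15, of Jsrp1 in 13 and of Tmem38b in 8. Of the 6 other settings, Tmem38a and Cacna1s passed in all, Prkar2a and Ppp3cb in 5, S100a1, Akap6, Tmem38b and Ppp1r3a in 4, Jsrp1 in 3, and Atp2b1 and Mcu in 2. With cage as a factor the calls of S100a1, Jsrp1, Atp2b1, Mcu, Akap6 and Ppp3cb were lost (adjusted p from 0.0513 to 0.136). Without R403Q-CD 2 the counts were 16 lower and 3 higher, and with the length slope 8 and 1.

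**Figure D5:**
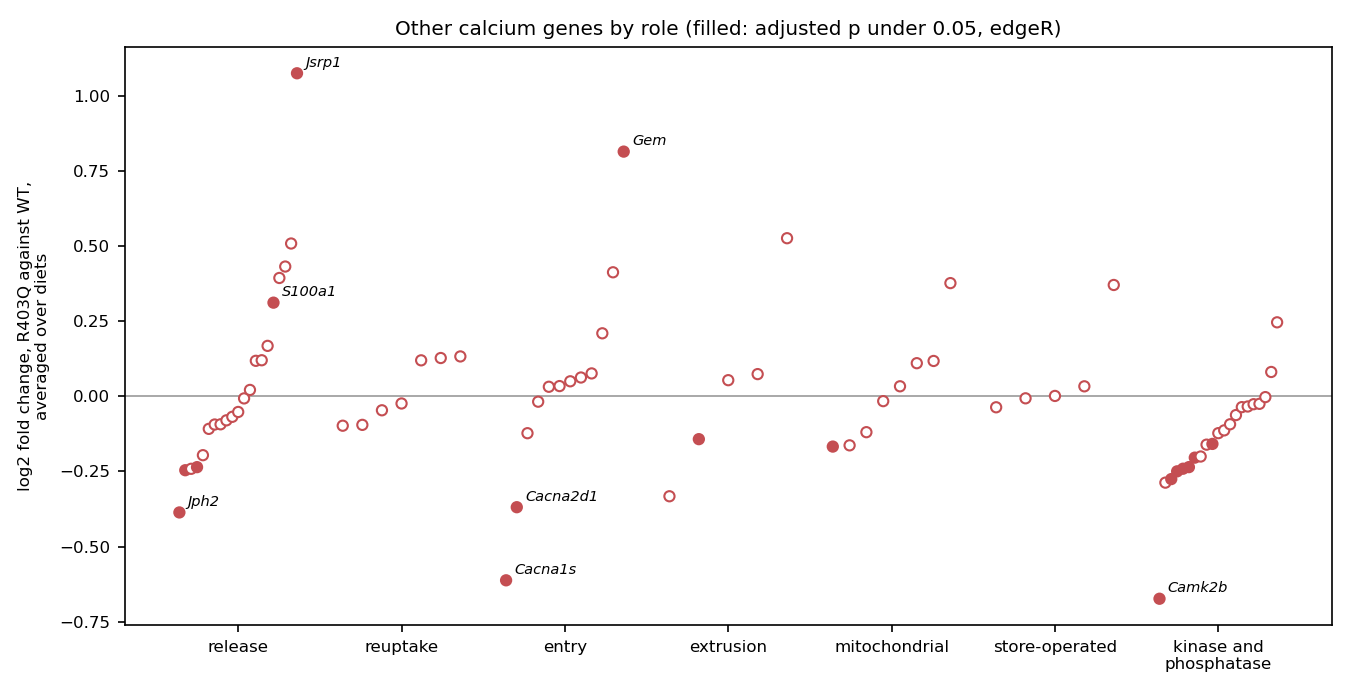
Log2 fold change of R403Q against wild-type hearts, averaged over diets (vertical axis, edgeR), for the 79 other calcium genes, 1 point per gene, sorted within 7 roles. Filled points have an adjusted p under 0.05: 14 lie below 0, 7 of them kinases, phosphatases and anchors, and 3 above.

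Averaged over genotypes, EMPA changed 3 of the 79, where 1.98% of all genes were higher and 0.936% lower. Speg, a kinase that phosphorylates Ryr2 and SERCA2, rose by 0.34 (adjusted p = 0.00938, edgeR), with 261 ± 31.7 CPM in WT-CD and 330.2 ± 7.93 in WT-EMPA, 228 ± 27.5 in R403Q-CD and 288 ± 23.6 in R403Q-EMPA. Pde3a, a phosphodiesterase that breaks down cyclic AMP near the store, rose by 0.44 (adjusted p = 0.0149), from 167 ± 17.1 to 243 ± 37.5 CPM in wild-type and from 156 ± 26.7 to 197 ± 33.3 CPM in R403Q hearts. Both calls were kept under all 5 other settings and in all 21 fits without 1 mouse. Hax1, a partner of phospholamban, fell by 0.21 (adjusted p = 0.0388), a call kept in 10 of 21 such fits and under 2 of 5 other settings. These diet values stand beside the red blood cell markers and Kdr, which were higher on EMPA, and the part of such shifts in them was not tested.

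For EMPA within 1 genotype 0 of the 79 passed in edgeR, with 5 higher and 9 lower at an unadjusted p under 0.05 in R403Q (7.06% and 6.36% of all genes) and 4 and 4 in wild-type hearts (11.0% of all genes in either direction). DESeq2 called 1 higher in the former and 2 higher in the latter, and in both it called more of all genes than edgeR did (totals in the section on processing). Within R403Q the smallest p-values were those of Speg (0.34, adjusted p = 0.144) and Rrad (0.35, adjusted p = 0.232) on the higher side and of Ryr3 (−1.90, adjusted p = 0.176, or −0.96 without R403Q-CD 2) and Cacnb1 (−0.37, adjusted p = 0.221) on the lower. Within wild-type mice they were those of Pde3a (0.54, adjusted p = 0.127), Speg (0.34, adjusted p = 0.188), Hax1 (−0.20, adjusted p = 0.325) and Orai1 (−0.14, adjusted p = 0.399). The interaction passed for 0 of the 79 in edgeR and in DESeq2, with Ryr3 (−2.13, or −1.18 without R403Q-CD 2) and Akap6 (−0.33) lowest and Orai1 (0.18) and Ppp1r1a (0.56) highest by p. Between genotypes on EMPA 0 passed in edgeR and 7, all lower, in DESeq2, which also called more of all genes here than edgeR did. At an unadjusted p under 0.05 in edgeR 17 were lower and 6 higher (6.56% and 8.14% of all genes). The smallest were Akap6 (−0.41, adjusted p = 0.084), Camk2b (−0.74, adjusted p = 0.0854), Gem (0.72, adjusted p = 0.181) and S100a1 (0.35, adjusted p = 0.185). In that comparison 14 of the 79 had all R403Q-EMPA hearts below all WT-EMPA hearts, 9 of them kinases, phosphatases or anchors, where 3.41% of all genes did. In R403Q-EMPA against WT-CD, Camk2b alone passed (−0.72, adjusted p = 0.045, edgeR), a call kept in none of the 9 fits without 1 mouse and under 4 of 7 other settings.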

How the data were processed

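The authors extracted RNA from left ventricles, selected poly(A) RNA, sequenced it as read pairs, aligned these to mm10 with STAR 2.6.0c and used featureCounts to assign proper pairs with a unique alignment to Ensembl genes, without those of the mitochondrial genome. The deposited counts are raw; the deposited log2 values are the same counts after DESeq2 size factors and variance stabilization by the authors, and entered only alternatives. Alignment to unique places and poly(A) selection can lower genes with near copies or degraded RNA.

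Genes were named from GENCODE vM21 (GRCm38), and the synonym of 1 listed gene from RefSeq. Counts of all 4 groups were fitted together in R 4.3.3 with edgeR 4.0.16 (filterByExpr with a minimum count of 10, TMM, quasi-likelihood F test) and p-values were adjusted by Benjamini-Hochberg over 17309 genes, with 0.05 as the threshold. A 4-group fit gives the averages of genotype and diet and the interaction. Intervals are 95% intervals of the fit. Ratios used log2(count + 0.5) and two-sided exact permutation tests; correlations used log2 CPM (prior count 2) and 100000 permutations. The paper describes the wild-type mice as littermates of the mutants, but which mice shared a litter is not given in the sources used here. The p-values therefore measure the spread between these mice.

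Alternatives were DESeq2 1.42.0, library size alone, no filter, limma 3.58.1 on the deposited log2 values, fits of 2 or 3 groups, cage as a factor, leaving out each mouse in turn, other pseudocounts (0 and 2) and, added after seeing the data, a length slope per library and permutation of the ratios within cages. Cage mates of unlike genotype had a median correlation of deviations from the group means of 0.211 on CD (8 pairs) and 0.045 on EMPA (4 pairs), against −0.024 and −0.021 for mice of different cages. The tests were tried on simulated counts. The members and lists were chosen with earlier results of these data known. All 10 members are named, with every other listed gene past the threshold in a contrast or, where there was none, the 2 higher and the 2 lower of smallest p, the 5 genes most like Sln, Atp2a2 and Ryr2, and markers of cell types whose sums moved with a result.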

Additional observations from a re-analysis of the deposited data

Results flagged for a closer look

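In 6 of 52 sets of values (a gene or ratio within 1 group) a single mouse stood far from the rest, its gap to the nearest being a large part of the whole range. The rule flags about 1 in 20 sets of independent, normally spread values. Sln values in CPM are skewed and the sets share mice, so the 6 flags are no measure of an excess over chance. R403Q-CD 2 accounted for 3 of them: Pln was 5422 CPM against 8143 to 9723 in the other R403Q-CD hearts, Sln was 88.4 CPM against 0.149 to 13.5, and the log2 ratio of Slc8a1 to Atp2a2 was −3.37 against −4.56 to −4.22. Another 2 concerned Sln, which was 31.2 CPM in WT-CD 5 against 0.206 to 3.82 in the other WT-CD hearts, and 2.69 CPM in R403Q-EMPA 2 against 0.0729 to 0.164. The last was Slc8a1 in R403Q-CD 5, at 409 CPM against 534 to 616.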

How the results depend on the processing

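The labels give no shared replicate numbers, but both genotypes share the 4 CD cages and 2 of the 3 EMPA cages, so the fit with cage as a factor is the paired one for genotype; its changes of call are given beside the results. Genes past the threshold numbered 250 in R403Q-CD against WT-CD, 2 in R403Q-EMPA against R403Q-CD, 168 in R403Q-EMPA against WT-CD, 10 in R403Q-EMPA against WT-EMPA, 5 in WT-EMPA against WT-CD, 504 for diet, 1883 for genotype and 0 for the interaction. In the same order DESeq2 gave 971, 145, 397, 297, 114 and, for diet, 984. With the length slope the counts that moved were 407, 12, 1 (between genotypes on EMPA), 0 (EMPA in wild-type) and 1009 (genotype). With library size alone they were 5 (EMPA in R403Q) and 0 (EMPA in wild-type), without the filter 314 (diet), with 3 groups 98, 0 and 84 in the first 3 comparisons, with 2 groups 28, 0, 668 and 123 in the first 4, and with cage 1128 (first), 0 (between genotypes on EMPA) and 944 (genotype). Leaving out single mice gave 31 to 1045, 0 to 12, 27 to 104, 1 to 64, 0 to 7, 122 to 929, 961 to 2764 and 0 to 0. The cause of these shifts was not tested.

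Differences near 0 turned sign under some settings. In R403Q-CD against WT-CD the log2 value of Casq2 was −0.037 with the length slope and −0.0080 with cage, and that of Trdn 0.052 with library size alone. In WT-EMPA against WT-CD the length slope gave 0.0081 for Casq2, 0.037 for Trdn, 0.046 for Hrc and 0.033 for Cacnb2, and Pln was −0.0072 with library size alone, −0.0027 without the filter and −0.0049 with 2 groups. The interaction was −0.0054 for Pln (length slope) and −0.13 for Slc8a1 (cage). Within cages the Slc8a1 ratio to Atp2a2 in R403Q-EMPA against WT-EMPA was −0.115. For genotype, Casq2 was −0.017 and Sln 0.363 with the length slope and Trdn 0.024 with library size alone, and for diet Casq2 was 0.028 with the length slope.

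Leaving out single mice turned the sign of other small values, given as lowest to highest log2 difference. In R403Q-CD against WT-CD these were Casq2 (−0.051 to 0.105), Trdn (−0.055 to 0.027), Sln (−1.12 to 3.51, the former without R403Q-CD 2) and the ratios to Atp2a2 of Sln (−0.203 to 1.91) and Slc8a1 (−0.044 to 0.154). In R403Q-EMPA against R403Q-CD they were Casq2 (−0.087 to 0.153), Hrc (−0.041 to 0.169), Pln (−0.019 to 0.118) and the Slc8a1 ratio (−0.157 to 0.134). In WT-EMPA against WT-CD they were Casq2 (−0.12 to 0.035), Trdn (−0.069 to 0.0047), Hrc (−0.051 to 0.018), Pln (−0.033 to 0.028), Sln (−2.58 to 0.857) and Cacnb2 (−0.103 to 0.0455). In R403Q-EMPA against WT-EMPA they were Casq2 (−0.0197 to 0.222) and the ratios of Sln (−1.26 to 0.918) and Slc8a1 (−0.125 to 0.126). In R403Q-EMPA against WT-CD they were Ryr2 (−0.086 to 0.109), Casq2 (−0.080 to 0.165), Cacna1c (−0.0585 to 0.106) and Slc8a1 (−0.223 to 0.015). The interaction ranged from −0.026 to 0.21 for Casq2, from −0.089 to 0.014 for Trdn, −0.026 to 0.182 for Hrc, −0.028 to 0.17 for Atp2a2, −0.021 to 0.12 for Pln and −0.096 to 0.12 for Slc8a1. For genotype Casq2 ran from −0.0065 to 0.12 and Sln from −1.66 to 0.95, and for diet Casq2 from −0.073 to 0.048, Hrc from −0.028 to 0.077 and Pln from −0.0088 to 0.059. With a pseudocount of 0 no Sln ratio could be taken in comparisons with WT-EMPA, and Sln was not tested in the fit of R403Q-EMPA and WT-EMPA alone.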

Other observations

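Strit1, which encodes the SERCA-activating peptide DWORF, ranged from 31.7 to 175 CPM in R403Q-CD hearts (median 122), against 96.2 to 141 in WT-CD, 142.8 to 223 in R403Q-EMPA and 104 to 169.9 in WT-EMPA. Its log2 fold change in R403Q-EMPA against R403Q-CD was 0.66 (adjusted p = 0.285, edgeR's quasi-likelihood test).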
